A study of Rattus norvegicus with 6 samples.

Results

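Genes of the response centred on the transcription factor ATF4 were followed in cultured rat hippocampal neurons in which cyclin Y (CCNY) was raised or lowered. The 10 genes were Atf4, Cebpb, Cebpg, Ddit3, Nupr1, Trib3, Ddit4, Sesn2, Asns and Chac1, taken by symbol from the 17066 genes of the deposited table, and each was found there. Of these, 8 entered for their known place in the response, though with earlier results of these data known. The other 2, Cebpg and Nupr1, were chosen by their FPKM, which had been seen to be higher in both conditions than in the control. The changes of Cebpg and Nupr1 are therefore described without a test.

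The libraries came from primary hippocampal neurons of Sprague-Dawley rat embryos at embryonic day 18, with RNA taken on day 14 in vitro. All cultures had been infected on day 5 or 6 in vitro with a lentivirus of the FUGW backbone. The control virus carried EGFP alone (EGFP), the second carried CCNY-WT-EGFP for overexpression (CCNY-WT), and the third carried CCNY-shRNA-EGFP for knockdown (CCNY-shRNA). Each condition was sequenced as 2 libraries (replicates 1 and 2), and nothing in the labels says whether these came from separate cultures, so p-values measure only the spread between these libraries. No uninfected culture is among the samples analysed, the control virus is not described as carrying an shRNA, and only 1 CCNY-shRNA is named, so effects of the virus shared by all cultures, or particular to that shRNA, cannot be told apart from those of CCNY. Values are FPKM (fragments scaled by transcript length and by library size), so levels can be compared between genes per unit of length.

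ATF4 is the main effector of the integrated stress response. Kinases that sense unfolded protein, missing amino acids, double-stranded RNA or haem shortage phosphorylate the initiation factor eIF2, which slows translation in general but favours that of the Atf4 transcript. ATF4 then pairs with C/EBP proteins, among them CEBPG, and switches on genes of amino acid supply, redox defence and, under lasting stress, cell death. Because ATF4 is controlled largely at translation, the level of its transcript alone does not give its activity.

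Ccny, the targeted gene, followed the labels. Its FPKM was 43.1 and 42.3 for the EGFP pair, against 108 and 109 with CCNY-WT and 5.98 and 6.19 with CCNY-shRNA. Neuronal markers were high in every library, with summed FPKM of the 10 markers between 5131 and 5301. Microglia markers summed to an FPKM of 1.29 at most, with Aif1 and Cx3cr1 listed at 0 throughout. A listed 0 may be a gene that was not quantified, since the chaperone gene Pdia6 was listed at 0 in all libraries too. Astrocyte markers were present, at 451 to 492 in EGFP, 481 to 484 in CCNY-WT and 403 to 472 in CCNY-shRNA, with none of the 6 measured at 0. Oligodendrocyte lineage markers summed to 44.2 to 44.5, 42.0 to 47.6 and 37.1 to 40.3 in the same order. Vascular and meningeal markers summed to between 63.8 and 75.5 over all libraries, the highest with CCNY-WT. Of these 8 markers, 6 stayed under an FPKM of 1 in every library. Nearly all of that sum came from Lum and Dcn. In such a mixed culture fewer cells of a type and less RNA per cell cannot be told apart, and the part of glial content in the values below was not tested. Depth relative to EGFP replicate 1 ranged from 0.818 to 1.33.

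The 10 genes covered a wide range in the EGFP cultures. Atf4 was the highest, with a mean FPKM of 396 ± 27.7 (SD, n = 2), above 98.3% of the genes listed above 0. It was followed by Ddit4 (79.2 ± 3.66), Asns (54.6 ± 1.95), Ddit3 (35.7 ± 10.4), Sesn2 (21.4 ± 1.69), Cebpg (20.1 ± 0.574), Chac1 (15.3 ± 2.58), Cebpb (4.24 ± 1.02), Trib3 (1.43 ± 0.0951) and Nupr1 (0.567 ± 0.299). Among neighbours in this order, the 2 libraries of Sesn2 and those of Cebpg overlapped, and those of the other neighbours did not. In CCNY-WT and in CCNY-shRNA, Cebpg lay above Sesn2 in each library.

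**Figure D1:**
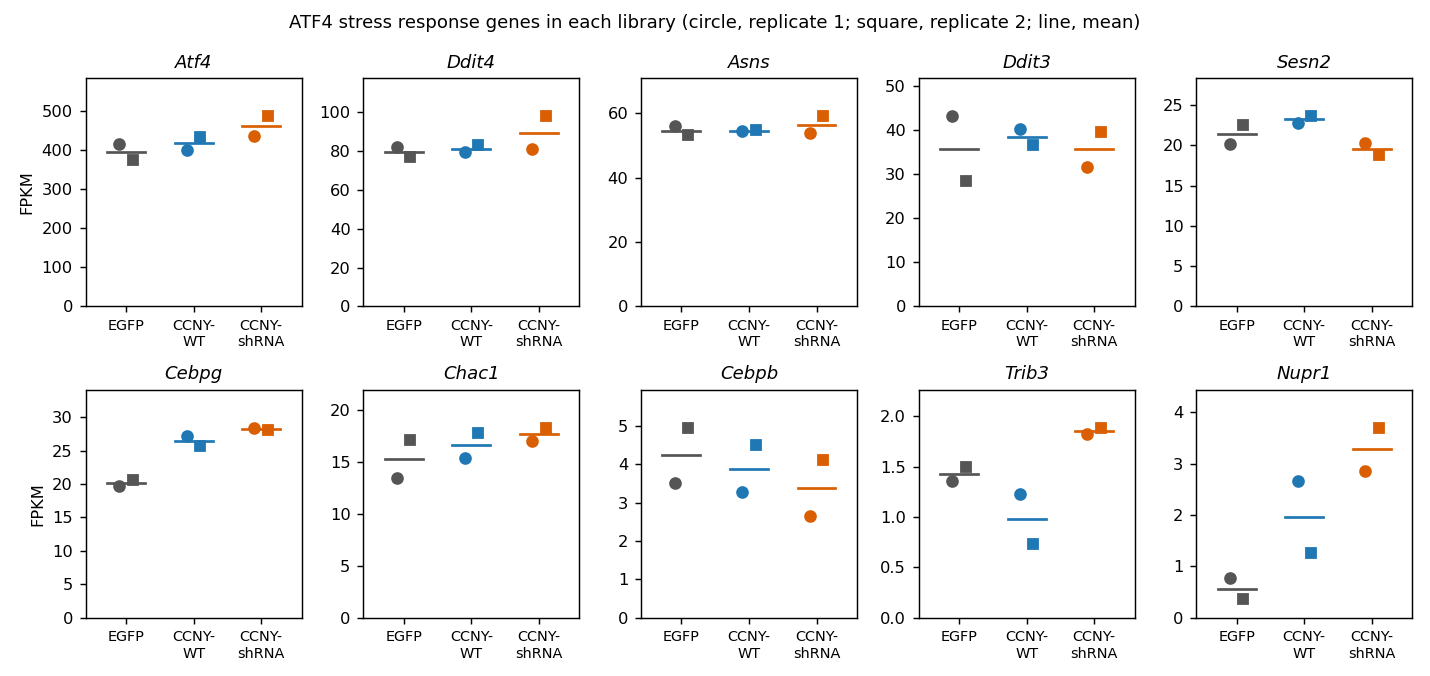
FPKM of the 10 genes in each library, 1 panel per gene with its own axis starting at 0, with circles for replicate 1, squares for replicate 2 and lines for the mean of the 2 libraries. Cebpg and Nupr1 sit lower in both EGFP libraries than in the other 4, while Asns lies between 53.2 and 59.0 in all 6.

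The upstream sequences of the genes were read from RefSeq (build GRCr8, a later build than the rn4 used for alignment), as the 250 bases before the annotated start, and all 10 genes were matched. ATF4 and C/EBP proteins bind as a pair to the C/EBP-ATF response element, searched here as TGATGNAA on both strands. It was found in 3 of the 10 sequences, those of Nupr1, Chac1 and Trib3, against 3.4% of 33469 sequences of the same length. Since the genes entered for their known place in the response or by their FPKM, this contrast is a description and no test. The sequences of these 3 genes and that of Cebpg, which has no such match, are shown because Nupr1 and Cebpg were the 2 genes chosen by their higher FPKM and Chac1 and Trib3 share the element with Nupr1. They lie at chr1:190645902-190646151 (minus strand) for Nupr1, chr3:126795881-126796130 (plus strand) for Chac1, chr3:161275534-161275783 (minus strand) for Trib3 and chr1:96829737-96829986 (minus strand) for Cebpg. Each is written 5′ to 3′ on the strand of the gene, with the match in capitals.
Nupr1: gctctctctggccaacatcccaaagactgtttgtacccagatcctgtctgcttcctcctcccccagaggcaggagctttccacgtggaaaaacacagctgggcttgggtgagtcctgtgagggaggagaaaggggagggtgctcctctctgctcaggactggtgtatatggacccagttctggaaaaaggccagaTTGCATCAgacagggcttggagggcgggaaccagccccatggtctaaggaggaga
Chac1: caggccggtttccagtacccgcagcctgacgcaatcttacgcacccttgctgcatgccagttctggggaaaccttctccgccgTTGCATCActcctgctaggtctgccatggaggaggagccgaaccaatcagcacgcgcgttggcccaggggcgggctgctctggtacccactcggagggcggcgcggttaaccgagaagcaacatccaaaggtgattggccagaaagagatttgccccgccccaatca
Trib3: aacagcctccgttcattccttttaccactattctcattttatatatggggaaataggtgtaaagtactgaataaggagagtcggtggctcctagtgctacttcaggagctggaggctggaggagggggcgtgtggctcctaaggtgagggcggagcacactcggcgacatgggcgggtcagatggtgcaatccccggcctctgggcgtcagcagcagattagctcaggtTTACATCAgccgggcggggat
Cebpg: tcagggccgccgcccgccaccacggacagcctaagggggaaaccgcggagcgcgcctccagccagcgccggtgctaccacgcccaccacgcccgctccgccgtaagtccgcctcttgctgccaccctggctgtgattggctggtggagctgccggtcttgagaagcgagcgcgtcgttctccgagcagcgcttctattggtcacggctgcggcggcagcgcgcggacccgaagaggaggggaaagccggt
The match began 55 bases before the start in Nupr1, 167 bases in Chac1 and 21 bases in Trib3. Nupr1 and Chac1 held the same letters, TTGCATCA, and Trib3 held TTACATCA, each being the element read on the opposite strand. The cAMP response element TGACGTCA, found in 1.59% of all sequences, and the ER stress response element (CCAAT and CCACG with 9 bases between), found in 0.0657%, had a match in 0 of the 10. A match is a string of letters and no evidence of binding, and the lack of one says only that the letters are not in this window.

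Cebpg encodes a short C/EBP protein that forms heterodimers with ATF4. Its FPKM was 19.7 and 20.5 for the EGFP pair, against 27.2 and 25.6 with CCNY-WT and 28.4 and 28.1 with CCNY-shRNA. The 3 pairs of values did not overlap, and the EGFP libraries were the lowest. The mean level was 1.31 times that of EGFP in CCNY-WT and 1.40 times in CCNY-shRNA, or 0.39 and 0.49 on the log2 scale with FPKM floored to 1. Under all 16 alternatives, leaving out any 1 library included, these log2 differences lay between 0.35 and 0.43 and between 0.46 and 0.52. Alternatives that alter only the filter or the spread cannot move such an estimate. The ranges describe a gene chosen on these same values and are no support for its rise. CCNY-shRNA lay above CCNY-WT by 0.10 on the log2 scale. Both conditions were compared with the same EGFP libraries, so the 2 differences are not independent of each other.

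Nupr1 encodes a small stress-induced chromatin-associated protein that ATF4 can switch on. It was the weakest of the 10 in EGFP, with an FPKM of 0.778 and 0.355 for the EGFP pair, against 2.66 and 1.25 with CCNY-WT and 2.85 and 3.69 with CCNY-shRNA. The 4 libraries of the CCNY viruses were above both EGFP libraries, and the CCNY-WT replicates lay further from each other than the lower of them lay from the nearer EGFP library. The ratio of the mean FPKM to that of EGFP was 3.46 in CCNY-WT and 5.78 in CCNY-shRNA. After flooring to 1, which raises both EGFP values, the log2 differences were 0.87 and 1.70. Without CCNY-WT replicate 1, the difference in CCNY-WT was 0.33, and Nupr1 reached an FPKM of 1 only in the libraries of CCNY-WT and CCNY-shRNA.

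The FPKM values of weakly expressed genes move in steps of 1 fragment, which gives the smallest whole numbers of fragments that fit all 6 libraries (tolerance 0.1). True numbers can be multiples of these. For Nupr1 they were 2 and 1 fragments for the EGFP pair, 9 and 3 with CCNY-WT and 6 and 11 with CCNY-shRNA. Over the 2 libraries of a condition these came to 3 fragments for EGFP, 12 for CCNY-WT and 17 for CCNY-shRNA, before any scaling for depth.

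**Figure D2:**
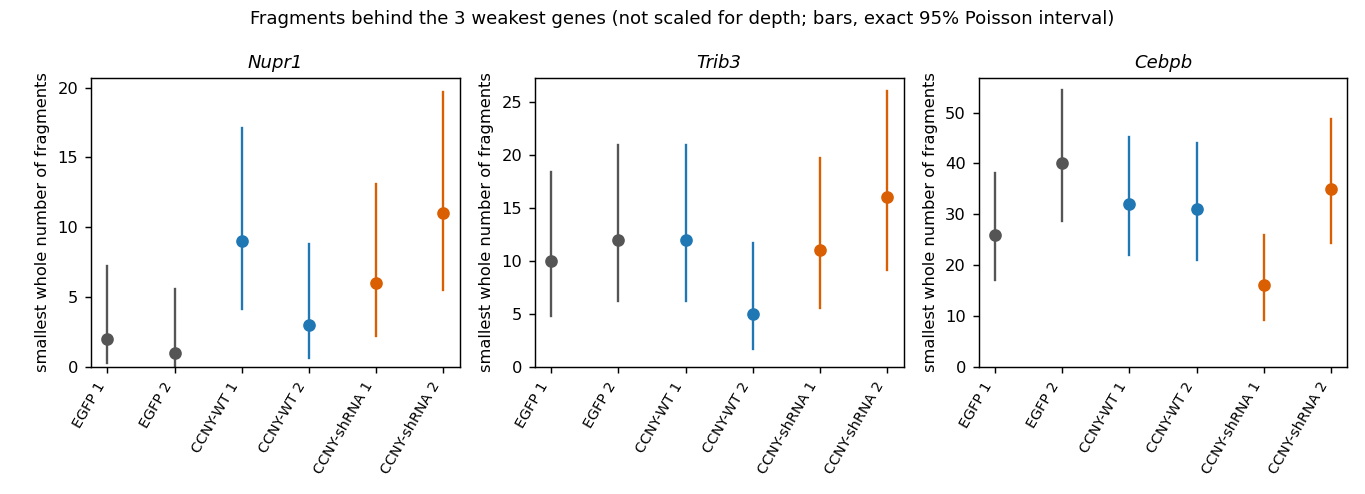
Smallest whole numbers of fragments that fit the FPKM of Nupr1, Trib3 and Cebpb in each library, not scaled for depth, with bars for the exact 95% Poisson interval. Nupr1 rests on 1 to 11 fragments per library, Trib3 on 5 to 16 and Cebpb on 16 to 40.

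The other 8 genes were tested with limma, together with all 10188 genes that reached an FPKM of 1 in 2 or more libraries, and all 8 passed that filter. At a limma adjusted p under 0.05, 0 of the 8 passed in CCNY-WT against EGFP, where 0.00982% of all genes tested did, 0 passed in CCNY-shRNA against EGFP (0.746% of all genes), and 0 passed between CCNY-shRNA and CCNY-WT (0.216%). At an unadjusted p under 0.05 the counts were 0 of 8 in CCNY-WT, 1 of 8 in CCNY-shRNA and 2 of 8 between the conditions, against 6.83%, 18.6% and 12.2% of all genes. The median log2 change of the 8 genes was 0.06 in CCNY-WT and 0.11 in CCNY-shRNA, against 0.0041 and 0 over all genes tested.

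By the libraries themselves, 2 of the 8 genes did not overlap between CCNY-WT and EGFP, against 39.5% of all genes tested. Sesn2 was the 1 that lay higher (20.3% of all genes) and Trib3 the 1 that lay lower (19.2%). Between CCNY-shRNA and EGFP the count was 2 of 8 (48.4% of all genes), with Atf4 and Trib3 higher (23.9%) and 0 lower (24.5%). Between CCNY-shRNA and CCNY-WT it was 3 of 8 (42.2% of all genes), with Atf4 and Trib3 higher (20.3%) and Sesn2 lower (21.9%). By size, Trib3 was the only 1 of the 8 beyond a log2 change of 0.3 in CCNY-WT, downwards, where 3.76% of all genes lay lower and 4.59% higher. Beyond 0.33 in CCNY-shRNA were Trib3 upwards (5.52% of all genes) and Cebpb downwards (7.59%). Split by direction, an unadjusted p under 0.05 was reached by 3.83% of all genes upwards in CCNY-WT, where 0 of the 8 did, and by 9.2% upwards in CCNY-shRNA, where Atf4 did. Between the conditions it was reached by 5.05% upwards, among them Trib3, and by 7.12% downwards, among them Sesn2. At the adjusted threshold 0.0196% of all genes lay higher in CCNY-shRNA than in CCNY-WT, and 0 of the 8.

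**Figure D3:**
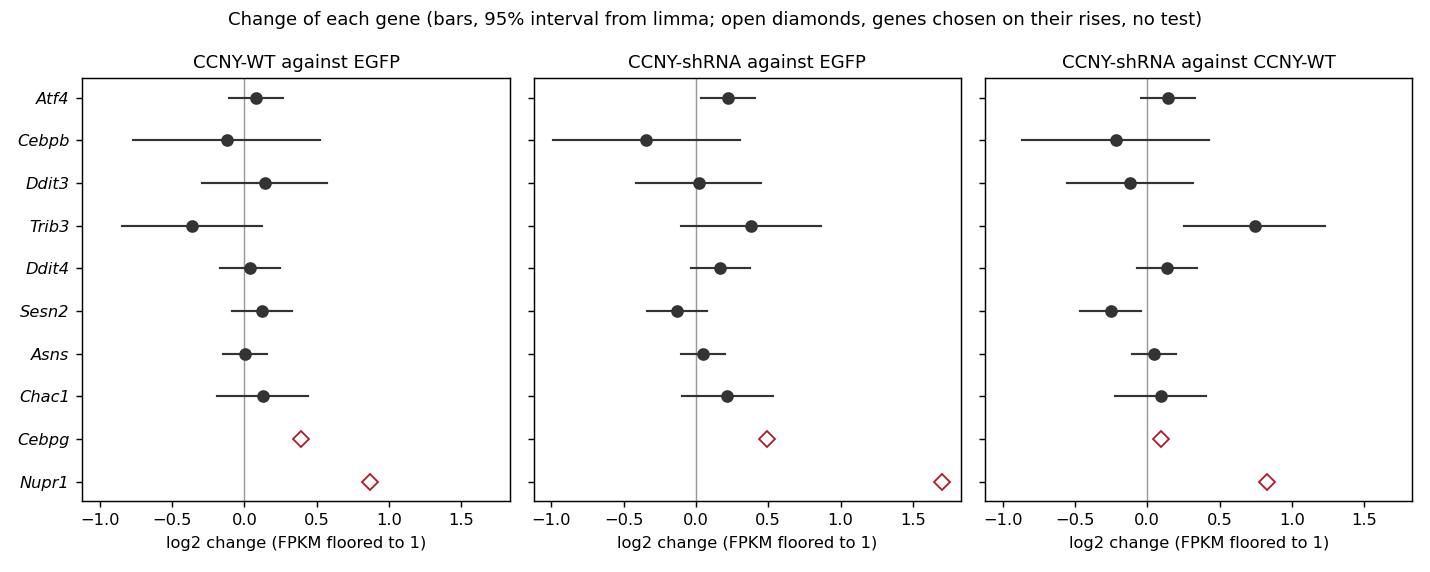
Log2 change of each gene (FPKM floored to 1) in the 3 comparisons, with bars for limma's 95% interval in the 8 genes tested and open diamonds without an interval for Cebpg and Nupr1. The intervals of Atf4 in CCNY-shRNA, and of Trib3 and Sesn2 between CCNY-shRNA and CCNY-WT, leave out 0 before any adjustment.

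Among the transcription factors, Atf4 itself had an FPKM of 416 and 376 for the EGFP pair, against 402 and 434 with CCNY-WT and 437 and 487 with CCNY-shRNA. The CCNY-shRNA libraries lay above the other 4, while CCNY-WT and EGFP overlapped. The log2 change in CCNY-shRNA was 0.22 (standard error 0.0798, 95% interval 0.04 to 0.41, limma adjusted p = 0.196), and in CCNY-WT it was 0.08 (interval -0.11 to 0.26, limma adjusted p = 0.886). Over the alternatives its adjusted p in CCNY-shRNA ranged from 0.0947 to 0.606.

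Ddit3 (CHOP), which takes part in cell death under lasting stress, had an FPKM of 43.1 and 28.3 for the EGFP pair, against 40.3 and 36.7 with CCNY-WT and 31.7 and 39.6 with CCNY-shRNA. The EGFP libraries were the most distant pair and enclosed all other values. Its log2 change was 0.14 in CCNY-WT (interval -0.29 to 0.57) and 0.02 in CCNY-shRNA (interval -0.41 to 0.45), and the upper ends of these intervals stand for 1.49 and 1.37 times the EGFP level. Without EGFP replicate 2 both estimates turned negative, at -0.16 and -0.28.

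Cebpb, a C/EBP activator also driven by inflammatory signals, was weak, at an FPKM of 3.52 and 4.95 for the EGFP pair, against 3.27 and 4.50 with CCNY-WT and 2.64 and 4.10 with CCNY-shRNA. Replicate 2 was the higher library in every condition and the 3 ranges overlapped. The log2 change was -0.12 in CCNY-WT (interval -0.77 to 0.52) and -0.34 in CCNY-shRNA (interval -0.99 to 0.30, limma adjusted p = 0.556). The latter was -0.025 without CCNY-shRNA replicate 1, -0.66 without CCNY-shRNA replicate 2, -0.59 without EGFP replicate 1 and -0.09 without EGFP replicate 2.

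Trib3 encodes a pseudokinase that ATF4 and CHOP induce and that restrains them in turn. Its FPKM was 1.36 and 1.496 for the EGFP pair, against 1.23 and 0.730 with CCNY-WT and 1.83 and 1.89 with CCNY-shRNA. The 3 conditions did not overlap, with CCNY-WT lowest and CCNY-shRNA highest. The log2 change was -0.36 in CCNY-WT (limma adjusted p = 0.794, SE 0.209), 0.38 in CCNY-shRNA (limma adjusted p = 0.374, SE 0.209), and 0.74 between CCNY-shRNA and CCNY-WT (interval 0.26 to 1.23, limma adjusted p = 0.260). The smallest fitting numbers of fragments were 10 and 12 for the EGFP pair, against 12 and 5 with CCNY-WT and 11 and 16 with CCNY-shRNA, and the value of CCNY-WT replicate 2 was raised to the floor in this fit.

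Sesn2 and Ddit4 both restrain the growth kinase complex mTORC1, Sesn2 as a leucine sensor of the sestrin family and Ddit4 (REDD1) through the TSC complex. Sesn2 had an FPKM of 20.2 and 22.6 for the EGFP pair, against 22.8 and 23.6 with CCNY-WT and 20.3 and 18.7 with CCNY-shRNA. CCNY-WT was above both other conditions in each library, and the CCNY-shRNA and EGFP ranges overlapped. Between CCNY-shRNA and CCNY-WT the log2 difference was -0.25 (limma adjusted p = 0.334, SE 0.0904). Against EGFP it was 0.12 in CCNY-WT (limma adjusted p = 0.836) and -0.13 in CCNY-shRNA (limma adjusted p = 0.476).

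Ddit4 had an FPKM of 81.8 and 76.6 for the EGFP pair, against 79.3 and 83.1 with CCNY-WT and 81.2 and 97.8 with CCNY-shRNA. CCNY-shRNA replicate 2 stood above the other 5 libraries, which lay between 76.6 and 83.1. The log2 change was 0.04 in CCNY-WT (interval -0.17 to 0.24) and 0.17 in CCNY-shRNA (interval -0.04 to 0.38, limma adjusted p = 0.353), and without CCNY-shRNA replicate 2 the latter was 0.04.

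Of the 2 enzymes, Asns makes asparagine and is a long-known target of ATF4. Its FPKM was 56.0 and 53.2 for the EGFP pair, against 54.5 and 54.7 with CCNY-WT and 53.9 and 59.0 with CCNY-shRNA, and all 3 ranges overlapped. The log2 change was 0.00036 in CCNY-WT (interval -0.15 to 0.15) and 0.05 in CCNY-shRNA (interval -0.10 to 0.20). In CCNY-WT the interval stands for 0.900 to 1.11 times the EGFP level, and it was the narrowest among the 8 genes.

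Chac1 breaks down glutathione. It had an FPKM of 13.5 and 17.1 for the EGFP pair, against 15.4 and 17.8 with CCNY-WT and 17.1 and 18.3 with CCNY-shRNA. Replicate 2 was the higher in every condition, and EGFP replicate 1 was the lowest library. The log2 change was 0.13 in CCNY-WT (interval -0.19 to 0.44) and 0.22 in CCNY-shRNA (interval -0.09 to 0.53, limma adjusted p = 0.425). The latter was 0.046 without EGFP replicate 1 and 0.39 without EGFP replicate 2. Nupr1, Chac1 and Trib3, the genes whose upstream sequence held the C/EBP-ATF response element, thus had log2 changes of 0.87, 0.13 and -0.36 in CCNY-WT and of 1.70, 0.22 and 0.38 in CCNY-shRNA.

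The wider response was read from 8 lists of 111 other genes of stress signalling, of which 93 could be tested. These lists, too, were drawn up with earlier results of these data known. In each comparison 0 of the 93 passed limma's adjusted threshold, and at an unadjusted p under 0.05 there were 9 in CCNY-WT and 25 in CCNY-shRNA, where 6.83% and 18.6% of all genes lay under it. Their median log2 change was -0.02 in CCNY-WT and -0.04 in CCNY-shRNA, with 41 and 37 of the 93 (44.1% and 39.8%) higher than in EGFP, against 51.3% and 50% of all genes. Aldh1l2, Mx2 and Slc1a5 are among the 93 but reached an FPKM of 1 in the CCNY-WT libraries only, so they entered through the condition in which they were high. They are counted in the 41, and Mx2 also in the 9. In CCNY-shRNA the floor set their log2 change to 0, so they could not count as higher there.

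Upstream of ATF4, 11 of 12 genes of eIF2, its kinases, its exchange factor and its phosphatase could be tested. Eif2ak2, the kinase that responds to double-stranded RNA, was listed at 0 in all libraries. The median change was 0.03 in CCNY-WT and 0.02 in CCNY-shRNA. Ppp1r15a (GADD34), the stress-induced subunit that leads the phosphatase to eIF2, had the largest positive change in CCNY-shRNA, with an FPKM of 18.8 and 19.8 for the EGFP pair, against 20.5 and 19.1 with CCNY-WT and 25.5 and 25.2 with CCNY-shRNA (log2 change 0.39, limma adjusted p = 0.0768, SE 0.0810). Both CCNY-shRNA libraries lay above the other 4. Ppp1r15b, its constitutive counterpart, had the largest negative change there (-0.20, limma adjusted p = 0.281), and in CCNY-WT the extremes were Eif2b4 (0.21) and Eif2ak4 (-0.18).

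Of 11 further bZIP partners 7 could be tested, with a median change of -0.0071 in CCNY-WT and 0.03 in CCNY-shRNA. Cebpa had the largest positive change in both conditions (0.14 and 0.40, limma adjusted p = 0.901 and 0.247), and Dbp the largest negative one (-0.57 and -0.46, limma adjusted p = 0.725 and 0.209). Dbp is a clock-controlled factor, and its FPKM was 8.02 and 8.27 for the EGFP pair, against 6.37 and 4.76 with CCNY-WT and 6.28 and 5.61 with CCNY-shRNA. Both EGFP libraries were thus above the other 4.

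Genes of amino acid supply that ATF4 drives lay on both sides of their EGFP level. All 13 genes of amino acid and one-carbon synthesis were tested, with medians of 0.05 in CCNY-WT and -0.03 in CCNY-shRNA. At an unadjusted p under 0.05, Psph, Shmt2 and Bcat1 were higher in CCNY-shRNA, where 9.2% of all genes were, and Pycr1 lower (9.36%). In CCNY-WT, Gpt2 and Bcat1 were higher, where 3.83% of all genes were, and 0 were lower (3%). Pycr1, which makes proline, had the largest negative change in CCNY-shRNA, at 19.3 and 19.7 for the EGFP pair, against 20.3 and 20.2 with CCNY-WT and 14.4 and 15.1 with CCNY-shRNA (-0.40, limma adjusted p = 0.0768, SE 0.0827). Gpt2, an alanine transaminase, had the largest positive change in both conditions (0.40 and 0.37, limma adjusted p = 0.729 and 0.294), and Cth the largest negative one in CCNY-WT (-0.17). For the 13 aminoacyl-tRNA synthetase genes with the tRNA exporter Xpot among them, the medians were 0.03 and 0.04, and every change lay between Eprs at -0.10 and Yars at 0.17 in CCNY-shRNA, and between Iars at -0.08 and Yars at 0.14 in CCNY-WT. The 9 amino acid transporters had medians of -0.04 and -0.06, with Slc6a9 at -0.16 in CCNY-WT, and Slc3a2 at 0.07 and Slc6a9 at -0.28 in CCNY-shRNA. The largest positive value in CCNY-WT was that of Slc1a5, with an FPKM of 0.711 and 0.977 for the EGFP pair, against 1.02 and 1.45 with CCNY-WT and 0.521 and 0.678 with CCNY-shRNA.

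Among 16 of 21 other ATF4 and stress targets that could be tested, the medians were 0.0054 in CCNY-WT and -0.14 in CCNY-shRNA. Pmaip1 (NOXA), which promotes apoptosis, had the largest positive change in CCNY-WT, with an FPKM of 13.3 and 8.45 for the EGFP pair, against 19.6 and 17.3 with CCNY-WT and 16.4 and 17.1 with CCNY-shRNA (0.80, limma adjusted p = 0.617, SE 0.194). It was lower in both EGFP libraries than in the other 4. In CCNY-shRNA the extremes were Txnip, a thioredoxin inhibitor, at 0.95 (limma adjusted p = 0.0934) and Ndrg1 at -0.66 (limma adjusted p = 0.0768), and Ndrg1 was also the lowest in CCNY-WT (-0.31).

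The ATF6 and XBP1 arm, which raises chaperones of the endoplasmic reticulum, had 21 of 22 genes tested. The medians were -0.10 in CCNY-WT and -0.13 in CCNY-shRNA, with 4 and 3 genes above EGFP, where 51.3% and 50% of all genes lay above it. At an unadjusted p under 0.05, 2 were lower in CCNY-WT and 6 in CCNY-shRNA, against 3% and 9.36% of all genes, and 0 were higher in either. Both comparisons used the same EGFP libraries, so they are not independent of each other. Hspa5 (BiP), the chief chaperone of this arm, had an FPKM of 380.1 and 423 for the EGFP pair, against 375 and 362 with CCNY-WT and 312 and 334 with CCNY-shRNA. Both CCNY-shRNA values were below the other libraries (log2 change -0.31), a change that did not pass the adjusted threshold. Canx had the lowest limma adjusted p of the list in CCNY-shRNA (0.0521, log2 change -0.34), which did not pass the threshold either. Its FPKM was 397 and 421 for the EGFP pair, against 395 and 375 with CCNY-WT and 324 and 320 with CCNY-shRNA. Hspa5 and Canx were named after their values were seen, so these values are a description and no test of the arm. Sdf2l1 had the largest positive change of the list in both conditions (0.33 and 0.25, limma adjusted p = 0.87 and 0.71). Its EGFP pair, at an FPKM of 5.57 and 11.6, enclosed all other libraries. The largest negative changes were those of Ern1 in CCNY-WT (-0.43, limma adjusted p = 0.80) and Derl3 in CCNY-shRNA (-0.45, limma adjusted p = 0.327). For Ern1 the CCNY-WT and EGFP libraries overlapped. Of 10 interferon-stimulated genes 3 could be tested. The largest positive value in CCNY-WT was that of Mx2, with an FPKM of 0.985 and 0.903 for the EGFP pair, against 1.33 and 1.66 with CCNY-WT and 0.774 and 0.855 with CCNY-shRNA.

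**Figure D4:**
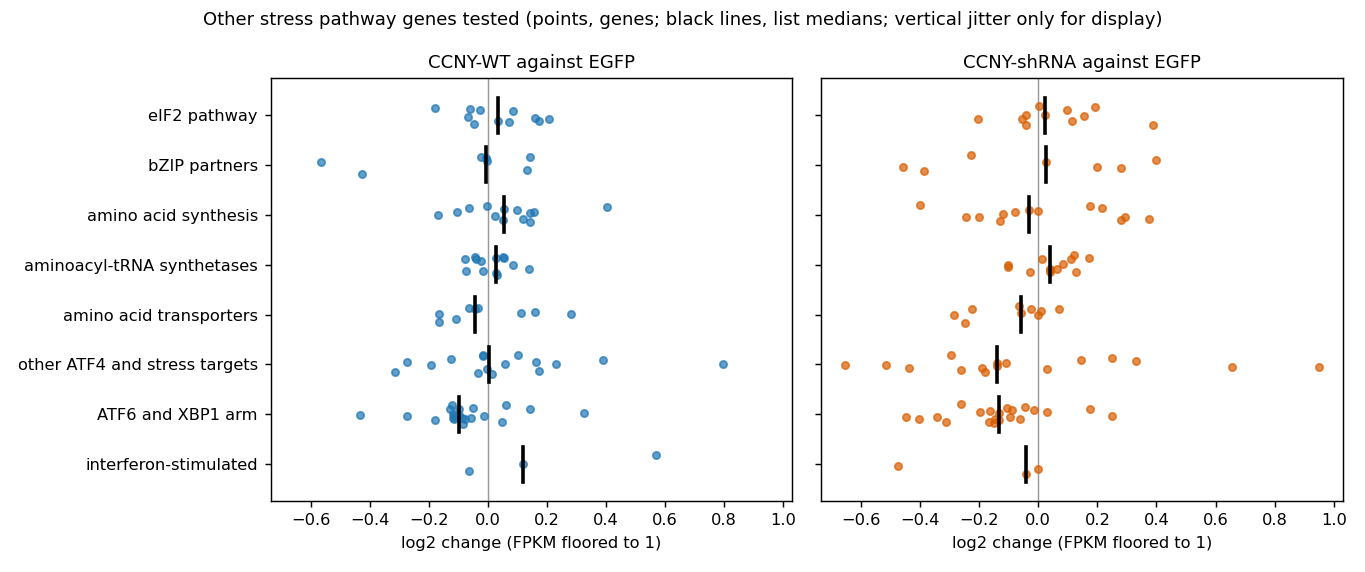
Log2 change (FPKM floored to 1) of each tested gene of the 8 other stress lists, CCNY-WT against EGFP on the left and CCNY-shRNA against EGFP on the right, with black lines for list medians. The medians lie between -0.14 and 0.12, the latter from only 3 interferon-stimulated genes. That of the ATF6 and XBP1 arm is below 0 on both sides, which share the same EGFP libraries.

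Genes with a pattern most like that of Cebpg were sought among 8059 others with a mean FPKM of 5 or more, by Pearson's r of log2 FPKM over the 6 libraries. With so many genes and 6 points, high values arise easily, and they are given as a description. The 5 most alike were Agap3 (r = 0.989), Hmox2 (0.982), Mboat7 (0.981), Pgls (0.980) and Atp13a2 (0.976). Agap3, a GTPase-activating protein, had an FPKM of 35.7 and 36.2 for the EGFP pair, against 41.5 and 41.6 with CCNY-WT and 42.6 and 42.2 with CCNY-shRNA, a smaller step than that of Cebpg. Against Cebpg, r was 0.63 for Atf4, 0.58 for Chac1, 0.46 for Ddit4, 0.25 for Asns, 0.07 for Ddit3 and -0.16 for Sesn2. Those most like Atf4 were Nsun5 (r = 0.996), Gtf3c5 (0.996), Eif5a (0.994), Klhdc10 (0.994) and Tgfb1i1 (0.991), and of the 6 members compared with Atf4, those with a mean FPKM of 5 or more, Ddit4 came closest (0.93), followed by Asns (0.81).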

How the data were processed

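RNA-seq of 6 libraries was used, with 2 per condition. The authors placed 150-bp paired-end reads on the rn4 build using TopHat 2 and took expression from Cufflinks (version 2.2.1 in the submitters' processing notes), and the deposited FPKM table gives 1 value per gene and library. Which annotation was used, and whether libraries were scaled to each other, is not given in the sources used here. The table holds no read counts, so absolute depth is unknown. Relative depth and whole fragments were read from the steps of weak genes: of 1896 genes whose FPKM stayed below 1 in every library and exceeded 0 in 3 or more, 99.1% fitted within 0.1. The depths were set from genes below an FPKM of 0.3, which can be among these, and up to 20 fragment numbers were tried. This share is therefore no independent check. The intervals cover counting error only.

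FPKM was floored to 1, as in the paper's methods, and log2-transformed, which understates changes of weak genes. Limma 3.58.1 (R 4.3.3) with a trend was fitted over the 6 libraries to the 10188 genes that reached FPKM 1 in 2 or more of them, with Benjamini-Hochberg adjustment over all genes and calls at 0.05. Before use, the fit was tested on simulated data. The members and lists were chosen with earlier results of these data known. Named were all 10 members, the extremes of each pathway list against EGFP (1 result is not reported here), and the 5 genes most like Cebpg and Atf4. Hspa5 and Canx were named after their values were seen. List symbols numbered 150, of which 5 had no row. Upstream sequences came from RefSeq (GRCr8). Alternatives covered the offset, the filter, the scaling, the spread, the libraries in the fit, a replicate block and leaving out each library.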

Additional observations from a re-analysis of the deposited data

How the results depend on the processing

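None of the 8 tested genes passed the adjusted threshold in any comparison under any of the 16 alternatives. Of 384 values of these genes under alternatives, 367 kept their direction and call and 17 changed sign. Many of the 384 could not change sign. Alternatives that alter only the filter, the spread, the block or a library outside the comparison leave the estimate as it is. The 367 are therefore no measure of stability. Of 96 values of Cebpg and Nupr1, 6, all of Nupr1, moved by at least limma's standard error of the main estimate, used here only as a yardstick. Cebpg and Nupr1 were chosen on these same values, and many alternatives cannot move their estimates. Their count is therefore no support for their rises. With quantile normalization, Asns in CCNY-WT against EGFP was -0.00234. Leaving out 1 library gave Asns -0.0362 to 0.0369, Chac1 -0.0471 to 0.298, Cebpb -0.370 to 0.125, Ddit3 -0.163 to 0.441 and Ddit4 -0.0111 to 0.0831 in CCNY-WT against EGFP. In CCNY-shRNA against EGFP it gave Ddit3 -0.283 to 0.321 and Asns -0.0172 to 0.113. Between CCNY-shRNA and CCNY-WT it gave Chac1 -0.0126 to 0.198, Cebpb -0.536 to 0.0975, Ddit3 -0.281 to 0.0431, Ddit4 -0.00024 to 0.268 and Asns -0.0176 to 0.113. Over all alternatives Nupr1 ranged from 0.33 to 1.61 in CCNY-WT and from 1.45 to 2.40 in CCNY-shRNA.

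Over all genes, 1, 76 and 22 passed in CCNY-WT, in CCNY-shRNA and between them. In CCNY-WT it was 3 with log2(FPKM + 1) or a mean FPKM of at least 1. In CCNY-shRNA it was 1 without a trend or with only the 4 libraries compared, 2 without a filter and 39 with the replicate block, and between the conditions it was 1, 1, 2 and 18. Leaving out 1 library gave 1 (without either EGFP replicate) to 86 in CCNY-shRNA, with 18 and 26 without CCNY-WT replicates 1 and 2 and 39 without CCNY-shRNA replicate 2, and 1 (without either CCNY-WT replicate) to 22 between the conditions, with 8 without either EGFP replicate. The cause was not tested. Same-numbered libraries did not deviate together in every pair of conditions (r = 0.14 and 0.14, but -0.03 for EGFP with CCNY-shRNA), so the block, which left 0 of the 8 genes past the threshold, rests on shared numbers only. Whether small changes could be detected at this depth was not tested.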
